A study of Homo sapiens with 6 samples.

Results

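The enzymes that hydroxylate and cross-link collagen were examined here through 10 genes: LOX, LOXL1, LOXL2, LOXL3 and LOXL4 of the lysyl oxidase family, PLOD1, PLOD2 and PLOD3, the lysyl hydroxylases, and P4HA1 and P4HA2, catalytic subunits of prolyl 4-hydroxylase. Members were all probe sets that the platform annotation gives to one of these genes and to no other, which found 20 probe sets among 54613 on the array that are not controls. By gene, the members are 10 of 19775 genes that have a probe set of their own. Within these genes, probe sets were taken by name and not by their values. The genes themselves were proposed with earlier results of these data known. RNA was compared between 3 samples of untransfected MDA-MB-231, an established line of invasive breast tumour cells, and 3 samples labelled 231wCFry, which the labels describe as MDA-MB-231 cells that stably carry a cDNA of the wild-type Cop Fry allele (Cop is the Copenhagen rat) in a plasmid. Fry is a large scaffold protein that works with NDR-family kinases. Per the labels, 231wCFry is 1 clone, obtained by puromycin selection and picked because its Fry level was like that of MCF10A, a non-tumour mammary epithelial line. The samples of each line differed in passage, the passage of each sample is not given, and no clone with an empty vector is described. All cells grew as monolayers in Advanced DMEM with heat-inactivated serum.

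Collagen is modified before and after it is secreted. In the endoplasmic reticulum prolyl 4-hydroxylases convert prolines so that the collagen helix is stable at body temperature, and lysyl hydroxylases convert lysines, which later carry sugars or form cross-links. These hydroxylases need oxygen, iron, 2-oxoglutarate and ascorbate. Outside the cell the copper-dependent lysyl oxidases turn lysines and hydroxylysines into aldehydes, which join neighbouring collagen or elastin molecules and stiffen the matrix. LOX, PLOD2, P4HA1 and P4HA2 are textbook targets of the hypoxia-inducible factor HIF-1, and several of these enzymes have been linked to invasion of breast tumours.

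The arrays of the 2 groups differed across most genes, and several checks bear on every result that follows. Of 32771 probe sets that passed a filter on low signal, 62.6% were called at an adjusted p under 0.05 (limma), 30.3% higher and 32.3% lower in 231wCFry. Markers of other cell types moved with the groups. Of 8 melanocyte and neural crest markers with a probe set, 7 were tested, of which 6 rose and none fell. Their signal summed to 386 to 471 in parental samples against 5016 to 5476 in 231wCFry, and 4 of the 8, SOX10, S100B, MLANA and TYRP1, were at background on all 3 parental arrays. SOX10, S100B, MLANA and TYR passed the filter only through their 231wCFry signal, so the count of rises is partly set by the filter. Each of the other marker lists also holds a gene that passed only through its brighter group. Of 10 markers chosen for MDA-MB-231 and epithelium, 8 were tested, of which 1 rose and 5 fell, and they summed to 12880 to 13560 against 8561 to 10360. Vimentin, a filament protein for which MDA-MB-231 is known, read 3463 ± 199.8 and 3954 ± 521 (SD, n = 3), and the progesterone receptor was at background on all 6 arrays. The keratin KRT19 went from 1669 ± 43.5 to 1.1 ± 0.35. Fibroblast markers moved in both directions (4 of 7 tested rose and 3 fell). Their signal summed to 374 to 457 against 959 to 1060, of which the collagen chain COL1A2 alone gave a mean of 831 in 231wCFry. Decorin, a defining gene, was at background on all 231wCFry arrays. It was also dim in parental samples (3.5, 2.2 and 6.8), its groups overlapped, and the filter removed it, so it does not separate the groups. Besides COL1A2, THY1 (means 4.73 to 44.2), FAP (16.4 to 79.6) and PDGFRA (0.6 to 11.4) rose, while LUM, PDGFRB and COL1A1 fell. Endothelial markers (1 of 3 tested rose, 2 fell) summed to 182 to 288 against 22.9 to 36.6, and leukocyte markers (1 of 2 rose, 1 fell) to 26.3 to 33.9 against 19 to 28.8, with the T-cell gene CD3E at background on all 6 arrays. The ratio of 3' to 5' signal of GAPDH, a sign of RNA quality, was 1.36 to 1.39 in parental and 1.24 to 1.33 in 231wCFry arrays. That of beta-actin was higher, at 2.59 to 3.0 in parental and 2.45 to 2.65 in 231wCFry arrays. These marker values go against the label of the 231wCFry arrays as a derivative of MDA-MB-231, and whether they hold RNA of that line was not tested. The name 231wCFry below therefore stands for the arrays so labelled. An effect of Fry cannot be told apart from other differences between these arrays and the parental ones, the identity of the cells included, and the part of the markers in the results on collagen enzymes was not tested. Human FRY read at most 9.8 at any of its 4 probe sets. The introduced cDNA is of rat, and whether those probe sets can read it was not tested, so they are no check of it. Fewer cells of a type and less RNA per cell cannot be told apart in bulk RNA. The labels do not say that the samples came from separate cultures, so p-values measure the spread between these samples, which may be technical.

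RefSeq promoter sequences (build GRCh38.p14) were found for 9 of the 10 genes. LOXL2 is named only. The 250 bases before the transcription start are shown for LOX, LOXL1 and LOXL4, whose signals fell together to near background in 231wCFry, and for PLOD2 and P4HA1, which like LOX are known hypoxia-inducible genes but moved in different directions. LOX has 3 listed starts, and the most upstream is shown. The windows are chr5:122078260-122078509 on the minus strand, chr15:73926212-73926461 on the plus strand, chr10:98268195-98268444 on the minus strand, chr3:146161185-146161434 on the minus strand and chr10:73096867-73097116 on the minus strand. Capitals mark the core of the hypoxia response element on either strand, ACGTG or GCGTG, so that CACGT and CACGC are the same cores read from the opposite strand.
LOX: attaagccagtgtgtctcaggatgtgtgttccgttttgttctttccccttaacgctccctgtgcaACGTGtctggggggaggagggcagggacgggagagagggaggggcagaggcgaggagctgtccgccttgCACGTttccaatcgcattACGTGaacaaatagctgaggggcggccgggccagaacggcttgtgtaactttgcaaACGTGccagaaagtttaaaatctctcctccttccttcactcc
LOXL1: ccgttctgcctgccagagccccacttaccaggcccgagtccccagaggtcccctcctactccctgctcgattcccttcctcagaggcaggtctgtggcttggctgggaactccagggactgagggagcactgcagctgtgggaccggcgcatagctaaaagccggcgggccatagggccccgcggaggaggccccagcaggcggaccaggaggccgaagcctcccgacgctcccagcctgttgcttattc
LOXL4: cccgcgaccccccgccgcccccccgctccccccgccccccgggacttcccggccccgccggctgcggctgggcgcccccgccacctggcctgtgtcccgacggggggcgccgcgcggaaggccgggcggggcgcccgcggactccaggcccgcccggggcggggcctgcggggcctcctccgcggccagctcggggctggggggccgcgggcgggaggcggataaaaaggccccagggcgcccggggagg
PLOD2: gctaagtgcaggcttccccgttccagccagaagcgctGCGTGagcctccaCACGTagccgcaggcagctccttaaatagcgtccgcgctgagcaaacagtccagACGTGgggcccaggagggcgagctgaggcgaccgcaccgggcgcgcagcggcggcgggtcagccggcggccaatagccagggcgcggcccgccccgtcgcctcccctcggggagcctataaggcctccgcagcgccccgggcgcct
P4HA1: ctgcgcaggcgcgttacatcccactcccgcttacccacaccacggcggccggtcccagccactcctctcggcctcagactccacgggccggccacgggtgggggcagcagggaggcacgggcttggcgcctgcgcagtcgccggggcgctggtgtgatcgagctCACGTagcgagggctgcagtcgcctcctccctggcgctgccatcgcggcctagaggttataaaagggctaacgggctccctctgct

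The LOX window shown held 4 matches to ACGTG, beginning 185, 116, 98 and 42 bases before the start. The windows of the other listed LOX starts overlap each other and share the same single match to ACGTG and the same single match to GCGTG. The higher count thus belongs to the upstream start alone. PLOD2 held 2 (200 and 146 bases before the start) and 1 match to GCGTG, and P4HA1 held 1 match to ACGTG, 86 bases before the start. LOXL1 and LOXL4 held neither form. Of 35116 RefSeq windows of the same length, 18.5% held ACGTG, 0.669% held it at least 4 times, and 32.2% held GCGTG. Another motif, GGAATG on either strand, which TEAD factors of the Hippo pathway bind, was in 11.9% of all windows, and among the 9 members searched only LOXL3 held it, with 2 matches before its upstream start. The LOXL4 window was 86.4% G or C with 37 CpG dinucleotides, LOX was 55.2% with 13 and LOXL1 66.8% with 13. Over all windows the median was 58% and 11 CpG. The 3 lysyl oxidases that fell together thus did not share either core, and a match or its lack says nothing about whether a factor was bound.

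The 3 enzyme families moved in different ways (plot of signal by array). All 3 lysyl hydroxylases were higher in 231wCFry, both prolyl 4-hydroxylase subunits were lower, and the lysyl oxidases split into 3 that fell, 1 that rose and 1 that did not pass. In the limma fit without a filter on low signal, which keeps all 20 probe sets, 5 rose, 8 fell and 7 did not pass. Over all 54613 probe sets in that fit 38.1% were called, 18.3% higher and 19.7% lower. At 13 of the 20 the values of the groups did not overlap, against 46.4% of all probe sets, 22.3% higher and 24.1% lower. The filter on low signal removed 3 of the 20, a second probe set each of LOXL4 and P4HA1 and the dimmest of P4HA2. LOX, LOXL1 and LOXL4 passed it through their parental signal. Each gene was then read at its brightest probe set on average, by which 4 of the 10 rose, 5 fell and 1 did not pass, with a median log2 difference of -0.47. Over 13630 genes read in the same way 67.1% were called, 34.1% higher and 33.1% lower, with a median of 0.0082. The share of members called is therefore read against a background in which most genes were called.

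**Figure D1:**
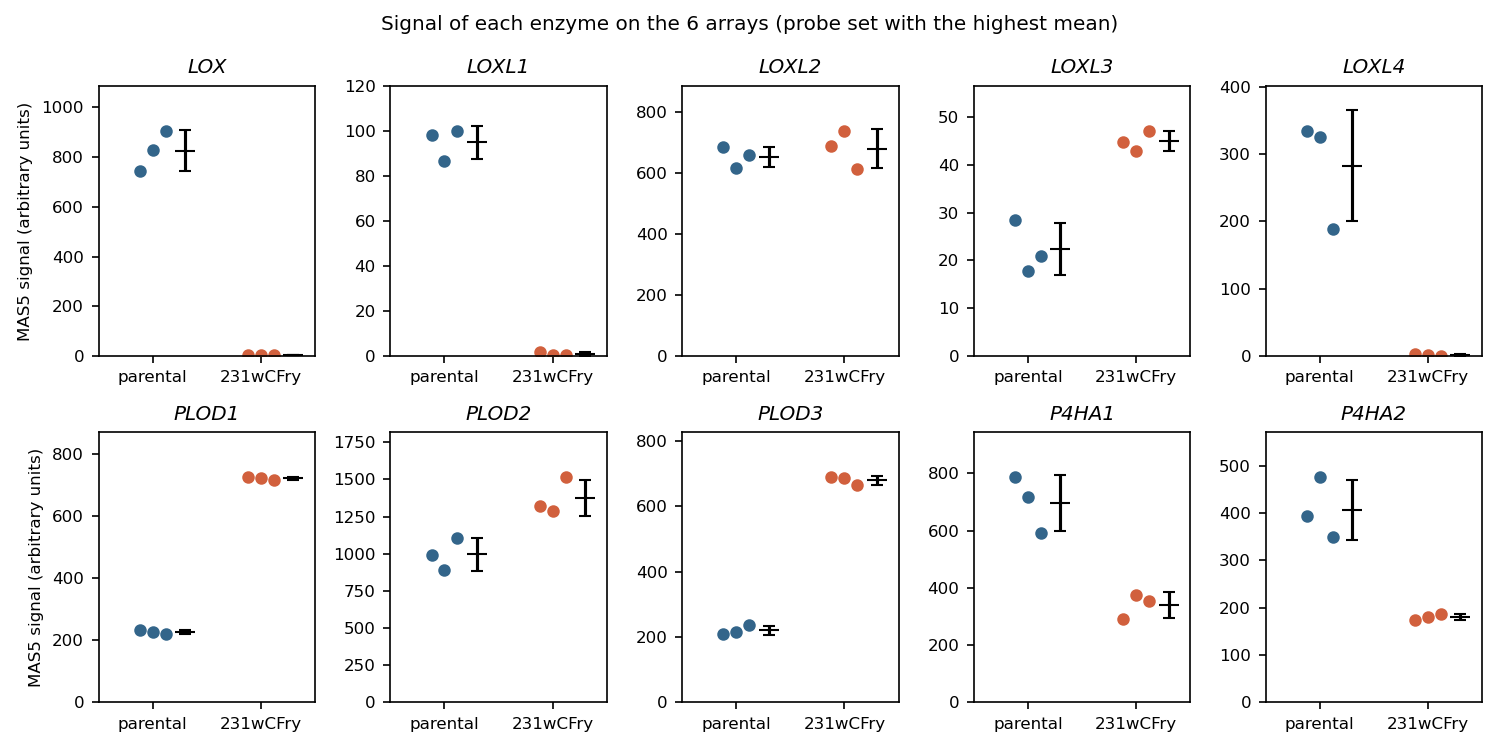
MAS5 signal (arbitrary units, linear axis from 0) of the 10 enzymes on 3 parental (blue) and 3 231wCFry (orange) arrays, each at its brightest probe set; black marks are mean and SD. LOX goes from 826 to 3.93, LOXL1 and LOXL4 lie near 0 in 231wCFry, LOXL2 overlaps between groups, and PLOD1 and PLOD3 are 3.18-fold and 3.09-fold higher in 231wCFry. Axes differ between genes, and levels of different genes are not comparable.

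LOX, the founding lysyl oxidase, fell to near background. At its brightest probe set it read 742.8, 829.9 and 905.1 on the parental arrays and 3.1, 4.2 and 4.5 on the 231wCFry arrays. The lowest parental array lay far above the highest 231wCFry array. The log2 difference was -5.40 (SE 0.10, adjusted p = 3.56e-10, limma), a size that depends on the constant added to the signal. All log2 values are differences in log2(signal + 16), 231wCFry minus parental, a scale that compresses the change of dim genes. In 231wCFry this probe set was at or below the unspiked bacterial control level of the array, taken as background, on 2 of 3 arrays. Measured against the median signal of all probe sets instead (10.4 to 12.1), it was at least 75.8-fold lower. The other LOX probe sets fell too. The second read 221.9, 202.9 and 220.4 against 4.2, 1.9 and 0.6 (log2 difference -3.67, SE 0.10, adjusted p = 3.24e-09). The dimmest read 20.8, 30.4 and 30.7 against 0.2, 0.2 and 3.6, at background on all 3 231wCFry arrays, and was at least 7.63-fold lower (adjusted p = 1.55e-05). Thus the 3 probe sets passed in 1 direction, and the dimmer ones gave the smaller differences.

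LOXL1, a paralog best known for cross-linking elastin, fell from 98.3, 86.5 and 100 to 1.7, 0.3 and 0.6. It was at background on all 3 231wCFry arrays and at least 26.9-fold lower (log2 difference -2.72, SE 0.093, adjusted p = 1.32e-08). Its 3 parental arrays agreed closely (94.9 ± 7.35, SD, n = 3). LOXL4, a paralog with scavenger receptor domains like LOXL2 and LOXL3, read 334.2, 326 and 188.1 in parental and 2.3, 1.9 and 0.3 in 231wCFry samples. It too was at background on every 231wCFry array and was at least 77.7-fold lower (log2 difference -4.05, SE 0.19, adjusted p = 1.15e-07). The third parental array was low beside the other two, and the groups were still far apart. The second LOXL4 probe set, removed by the filter, read at most 3 on any array, and its groups overlapped.

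LOXL2, which also acts inside the nucleus and is tied to invasion, was the lysyl oxidase whose groups overlapped. Its brightest probe set read 683.3, 615.9 and 656.4 in parental and 687.8, 736.6 and 612.1 in 231wCFry samples. The log2 difference was 0.05 with a 95% interval of -0.17 to 0.28 (adjusted p = 0.662). That interval holds no change as large as any called member showed. The other 3 LOXL2 probe sets were dim, at 9.1 to 35.4 on every array, with differences of -0.04, 0.14 and 0.05 and adjusted p of 0.76, 0.239 and 0.772. LOXL3, needed for cartilage and palate formation, was the lysyl oxidase that rose. It read 28.4, 17.8 and 20.9 in parental and 44.8, 42.9 and 47.1 in 231wCFry samples, so its groups did not overlap. The log2 difference was 0.68 (SE 0.11, adjusted p = 6.27e-04), and on the linear scale the mean was 2.01-fold higher.

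**Figure D2:**
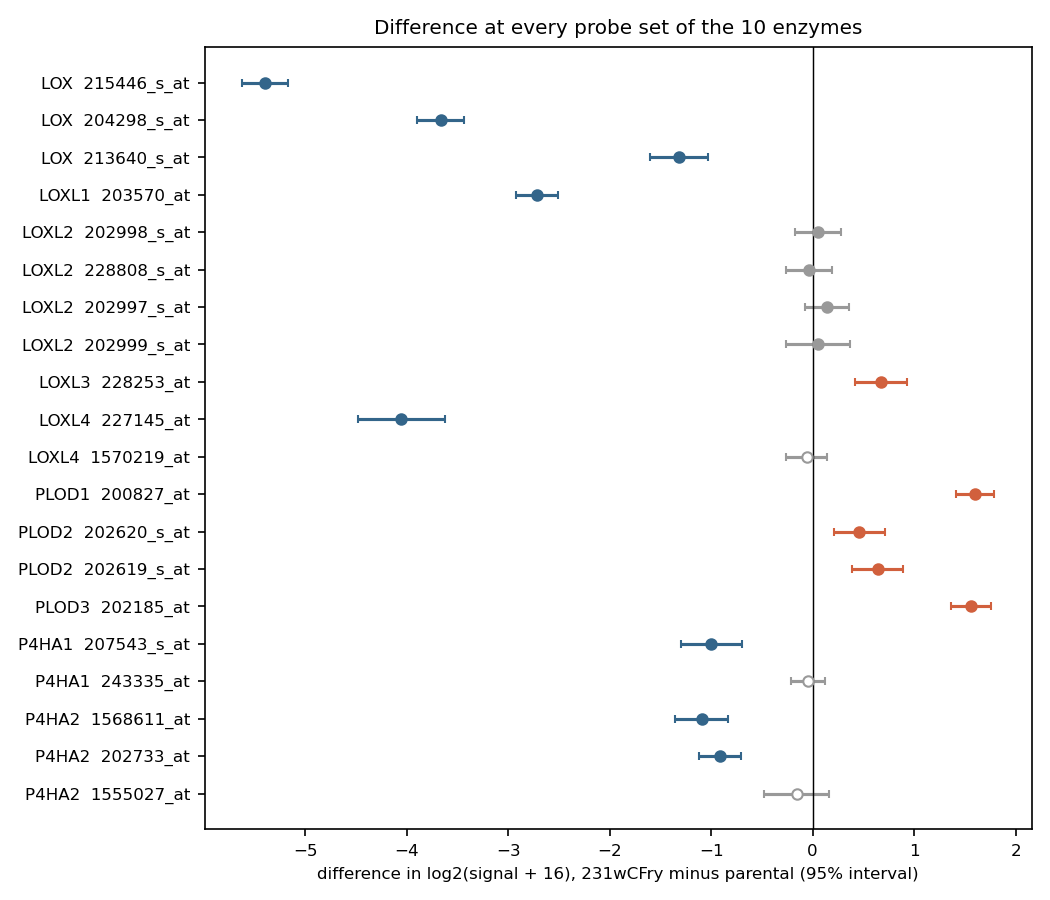
Difference in log2(signal + 16), 231wCFry minus parental, with its 95% interval from limma, at each of the 20 probe sets of the 10 enzymes. Orange points rose, blue points fell and grey points did not pass at an adjusted p of 0.05; open points were removed by the filter and are from the fit without it. The 3 LOX probe sets lie at -5.40, -3.67 and -1.32, the 4 LOXL2 probe sets lie around 0, and the PLOD probe sets lie between 0.46 and 1.60.

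Among the lysyl hydroxylases the smallest rise was in PLOD2. PLOD1, which hydroxylates lysines within the collagen helix and is mutated in kyphoscoliotic Ehlers-Danlos syndrome, read 232.8, 225.9 and 220.3 in parental and 723.6, 722.8 and 714.9 in 231wCFry samples. The spread within each group was a small part of the gap, and the mean was 3.18-fold higher (log2 difference 1.60, SE 0.083, adjusted p = 2.30e-07). PLOD3, which also has glycosyltransferase activity towards collagen, read 209.4, 215.1 and 236.4 against 687.8, 687.3 and 663.9. It was 3.09-fold higher (log2 difference 1.56, SE 0.089, adjusted p = 4.39e-07). Its groups were thus as clearly apart as those of PLOD1. PLOD2, which hydroxylates lysines of the telopeptides at the ends of the collagen molecule and so sets the type of cross-link, read 992.2, 889.2 and 1108 in parental and 1318.8, 1290 and 1512.8 in 231wCFry samples. The groups did not overlap, and the mean was 1.38-fold higher (log2 difference 0.46, SE 0.11, adjusted p = 0.0055). Its other probe set read 136.1, 102.4 and 105.4 against 185.7, 188.9 and 184.8 and was 1.63-fold higher (adjusted p = 7.86e-04). Both PLOD2 probe sets therefore passed in the same direction.

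Both prolyl 4-hydroxylase subunits fell. P4HA1, the main catalytic subunit in most cells, read 785.8, 716.3 and 592.5 in parental and 290.9, 376.5 and 354.5 in 231wCFry samples. The parental mean was 2.05-fold that of 231wCFry (log2 difference -1.0, SE 0.13, adjusted p = 1.39e-04). P4HA2, the isoform prominent in cartilage and bone, read 393.4, 475.1 and 349.5 against 174.3, 180.1 and 186.5. The parental mean was 2.25-fold that of 231wCFry (log2 difference -1.09, SE 0.12, adjusted p = 3.28e-05). Its second probe set read 195.8, 215.2 and 207.8 against 98.1, 111.4 and 96.8, with a difference of -0.91 (adjusted p = 2.34e-05). In each of the 3 probe sets every parental array lay above every 231wCFry array. The remaining probe sets of P4HA1 and P4HA2 read at most 2.2 and 7.8 on any array, and their groups overlapped.

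Whether members of a family changed unequally was read from the ratio of 2 members on the same array (plot of ratios). Of 14 pairs, the ratio did not overlap between groups in 12, and in 10 with 1 added to the signal in place of 16. Over all pairs of the 13630 tested genes 76.7% did not overlap, so the count is not read as particular to these families. With 3 samples against 3 the exact two-sided permutation test cannot go below 0.1, so no pair could pass, and the 12 had that p (adjusted p = 0.117). The log2 ratio of LOX to LOXL2 differed by -5.45 and that of LOX to LOXL3 by -6.07. The log2 ratio of PLOD1 to PLOD2 differed by 1.15 and that of PLOD2 to PLOD3 by -1.10, each with SDs of at most 0.18 within groups. Ratios that include LOX, LOXL1 or LOXL4 rest on 231wCFry signals near background, so their size depends on the constant of 16 added to the signal. The remaining pairs overlapped. The ratio of PLOD1 to PLOD3 differed by 0.045 (range -0.095 to 0.14 in parental and 0.071 to 0.10 in 231wCFry, exact permutation p = 0.7). That of P4HA1 to P4HA2 differed by 0.094 (0.58 to 0.97 and 0.69 to 1.001, exact permutation p = 0.6). These p-values do not show that the members of either pair changed equally.

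**Figure D3:**
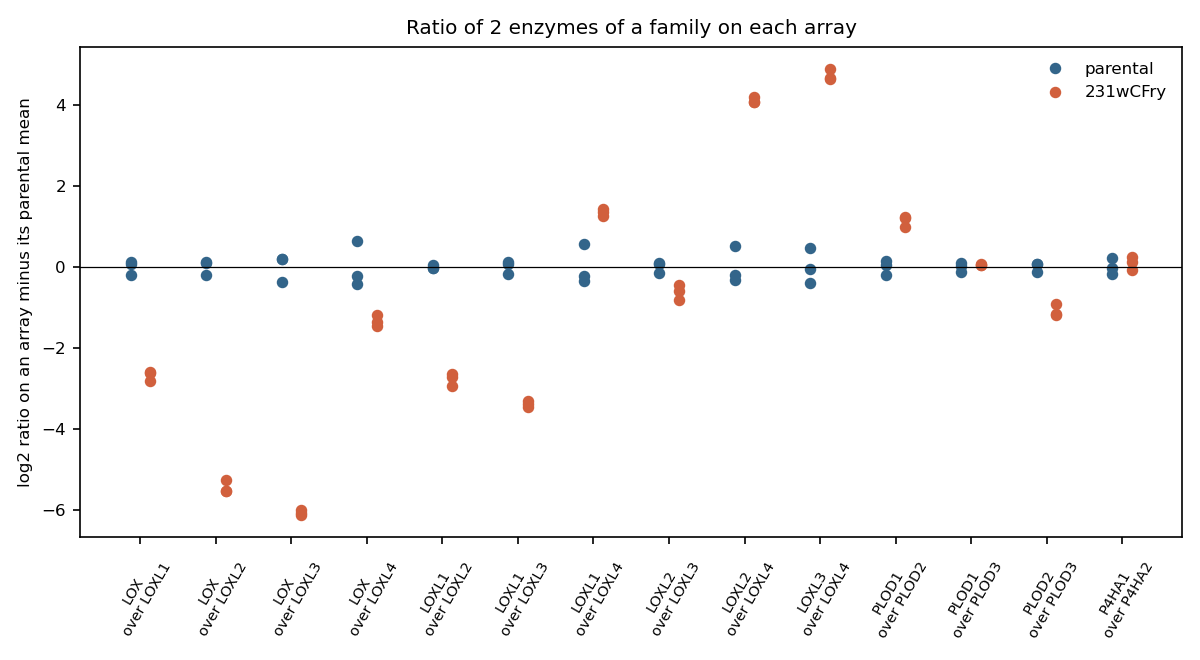
Log2 ratio of 2 enzymes of the same family on each array, minus the mean of the 3 parental arrays for that pair, for 14 pairs (blue, parental; orange, 231wCFry; log2(signal + 16) scale). The ratios of LOX to LOXL2 and LOX to LOXL3 differ by -5.45 and -6.07 in 231wCFry, while those of PLOD1 to PLOD3 and P4HA1 to P4HA2 overlap between groups.

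Other genes listed for collagen modification, most of them enzymes and chaperones of the endoplasmic reticulum, moved in both directions. Of 15 tested, 5 rose, 3 fell and 7 did not pass, where 34.1% of all genes rose and 33.1% fell. Their median difference was 0.06 against 0.0082 over all genes. P3H3 rose from 3.07 ± 2.15 to 159 ± 16.4 (SD, n = 3, adjusted p = 1.84e-08) and P3H4 from 69.5 ± 6.70 to 273 ± 27.3 (adjusted p = 6.58e-07). These 2 proteins are known to form a complex with PLOD1 and the prolyl isomerase PPIB that serves hydroxylation of helical lysines. PPIB, named after its values were seen, rose from 1723 ± 227 to 2495 ± 143 (adjusted p = 0.0026), so all 4 of these genes rose. This grouping was chosen after their values were seen. P3H1, also named afterwards, forms the separate prolyl 3-hydroxylation complex with CRTAP and PPIB. It fell from 249 ± 25.1 to 129 ± 11.6 (adjusted p = 7.78e-05), and CRTAP stood at 1714 ± 30.3 and 1998 ± 156 (adjusted p = 0.067), where of its 4 other probe sets 1 rose and 1 fell. FKBP10, a chaperone known to act with PLOD2 in telopeptide hydroxylation, rose from 11.2 ± 2.02 to 145 ± 11.4 (adjusted p = 3.06e-08). CREB3L1, a transcription factor that drives collagen synthesis and secretion in bone, fell from 626 ± 76.5 to 13.6 ± 5.57 (adjusted p = 9.19e-09). The shared beta subunit of prolyl 4-hydroxylase, P4HB, stood at 2687 ± 127 and 3150 ± 272 (adjusted p = 0.072, while 1 of its other 2 probe sets rose). The collagen chaperone SERPINH1 stood at 469 ± 27.3 and 439 ± 33.3 (adjusted p = 0.436). P4HA3, a further prolyl 4-hydroxylase alpha subunit named after its values were seen, fell from 12.2 ± 1.60 to 2.27 ± 2.72 (adjusted p = 0.0012), as did P4HA1 and P4HA2.

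**Figure D4:**
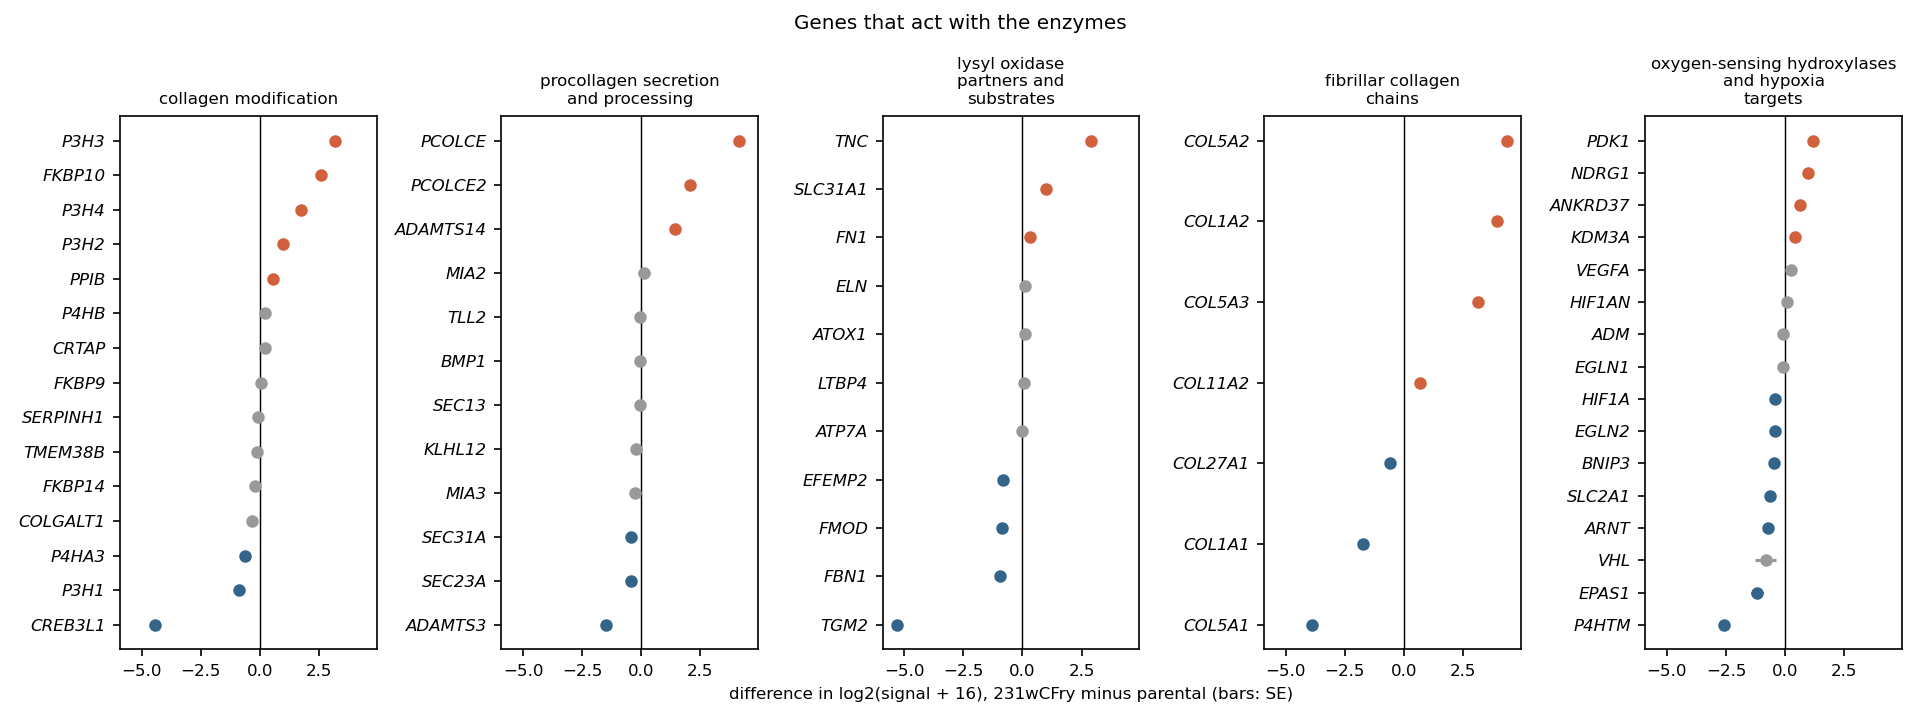
Difference in log2(signal + 16), 231wCFry minus parental, with its SE, for the tested genes of 5 lists of genes that act with the enzymes, each gene at its brightest probe set. Orange genes rose, blue genes fell and grey genes did not pass at an adjusted p of 0.05 (limma). P3H3, FKBP10, PCOLCE, COL1A2 and COL5A2 lie to the right, and CREB3L1, TGM2 and COL5A1 to the left.

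Genes that carry procollagen out of the cell and trim it moved in both directions too. Of 12 tested, 3 rose, 3 fell and 6 did not pass, where 34.1% of all genes rose and 33.1% fell. The filter removed 2. PCOLCE, which enhances removal of the C-terminal propeptide, rose from 24.5 ± 3.15 to 692 ± 61.4 (SD, n = 3, adjusted p = 1.89e-09). Its paralog PCOLCE2 rose from 43.7 ± 8.15 to 234 ± 20.6 (adjusted p = 4.45e-07). BMP1, the protease they assist, which also cuts the LOX propeptide, stood at 58.4 ± 10.1 and 57 ± 12.96 (adjusted p = 0.856), and none of its other 3 tested probe sets passed. Of the proteases that remove the N-terminal propeptide, ADAMTS3 fell from 38.6 ± 3.74 to 3.37 ± 0.68 (adjusted p = 7.82e-07) and ADAMTS14 rose from 9.8 ± 1.25 to 54.7 ± 7.66 (adjusted p = 2.40e-06). ADAMTS3 passed the filter on low signal only through its parental signal. The enhancers of BMP1 thus rose while BMP1 itself did not pass.

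Among genes listed beside the lysyl oxidases, most of them partners, substrates or copper transport genes, 3 of 11 tested rose, 4 fell and 4 did not pass. The filter removed 2, and over all genes 34.1% rose and 33.1% fell. TGM2, an enzyme that makes a different kind of cross-link in matrix proteins, fell from 1662 ± 52.5 to 26.1 ± 4.20 (SD, n = 3, adjusted p = 3.59e-10), as did its other 2 probe sets. TNC, the matrix protein tenascin C, rose from 255 ± 11.9 to 1999 ± 102 (adjusted p = 6.75e-09). EFEMP2 (fibulin 4), which tethers LOX to elastic fibres, fell from 141 ± 3.97 to 72 ± 6.57 (adjusted p = 4.08e-05). SLC31A1, the transporter that takes up copper, rose from 505 ± 62.9 to 1016 ± 27.6 (adjusted p = 3.13e-05). ATP7A, which loads copper onto LOX in the secretory pathway, stood at 326 ± 32.2 and 326 ± 21.0, with a 95% interval of the log2 difference of -0.23 to 0.23 (adjusted p = 0.995). Copper uptake and copper loading genes were therefore not called together.

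All 7 fibrillar collagen chains that passed the filter were called, 4 higher and 3 lower, where 67.1% of all genes were called, 34.1% higher and 33.1% lower. The filter removed 4 more chains, while COL5A3 and COL11A2 passed it through their 231wCFry signal, so the count called is partly set by the filter. Without the filter 8 of the 11 chains, each read at its brightest probe set, were called. In that fit 38.1% of all probe sets were called, but this share counts every probe set, dim ones included. It is therefore not a like background for genes read at their brightest probe set. Chains that assemble into the same collagen were called in opposite directions. COL1A2 rose from 39.4 ± 3.47 to 831 ± 48.4 (SD, n = 3, adjusted p = 1.36e-09), while COL1A1, named after its values were seen, fell from 131 ± 22.7 to 27.5 ± 3.02 (adjusted p = 1.81e-06), with 1 of its other 2 probe sets called, also lower. COL5A1 fell from 958 ± 104 to 53 ± 22.1 (adjusted p = 3.03e-07), whereas COL5A2 rose from 13.9 ± 0.98 to 600 ± 43.9 (adjusted p = 6.67e-10). COL5A3 was at background on all 3 parental arrays and was at least 39.9-fold higher in 231wCFry. Beside these differences the melanocyte and neural crest markers summed to 386 to 471 in parental samples against 5016 to 5476 in 231wCFry. The fibroblast markers summed to 374 to 457 against 959 to 1060, but that list holds COL1A1, COL1A2 and COL3A1 themselves. COL1A2 made up most of the 231wCFry sum, so the sum is not independent of these chains. The part of the markers was not tested.

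Since LOX, PLOD2, P4HA1 and P4HA2 are hypoxia-inducible, oxygen-sensing hydroxylases and other hypoxia targets were read beside them. Of 16 tested, 4 rose, 7 fell and 5 did not pass, with a median difference of -0.25, where 34.1% of all genes rose and 33.1% fell. Split by role after the values were seen, the 8 tested sensors and factor subunits held 5 of the falls and no rise, while of the 8 tested targets 4 rose, 2 fell and 2 did not pass. P4HTM, a transmembrane relative of the prolyl 4-hydroxylases, fell from 137 ± 5.85 to 9.8 ± 1.35 (SD, n = 3, adjusted p = 1.48e-08). ARNT, the partner subunit of the hypoxia-inducible factors, fell from 494 ± 19.3 to 296 ± 6.25 (adjusted p = 7.00e-05), and its 4 other probe sets fell. PDK1, a kinase that limits pyruvate use, rose from 299.7 ± 0.79 to 709 ± 47.5 (adjusted p = 2.86e-06) and NDRG1, a stress-induced gene, from 883 ± 116 to 1735 ± 17.9 (adjusted p = 4.25e-05). The glucose transporter SLC2A1, named after its values were seen, fell from 939.6 ± 135 to 601 ± 59.98 (adjusted p = 0.0017). BNIP3, a mitophagy receptor, fell from 1021 ± 80.0 to 733 ± 35.1 (adjusted p = 0.0021), and ANKRD37 and the histone demethylase KDM3A rose (log2 differences 0.63 and 0.42, adjusted p = 0.0017 and 0.0055), all 3 named after their values were seen. VEGFA, the endothelial growth factor, did not pass at its brightest probe set (adjusted p = 0.096), while its other 3 tested probe sets rose. Among the members, PLOD2 rose and LOX, P4HA1 and P4HA2 fell.

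The 5 genes whose values lay nearest to those of LOX over the 6 arrays, by Euclidean distance in log2(signal + 16), were ADGRF5, SLC39A8, CST6, EPDR1 and MALL. Their distances were 0.28, 0.289, 0.373, 0.423 and 0.434. Nearest was ADGRF5, an adhesion receptor, which read 775.6, 733.2 and 892.1 in parental and 1.3, 3 and 2.8 in 231wCFry samples. SLC39A8, a metal ion transporter, read 790.7, 948.6 and 1010.3 against 3.7, 5.6 and 3.6. With 2 groups of 3 this likeness rests mostly on the difference between groups, and it is a description.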

How the data were processed

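Total RNA from 6 samples was labelled with biotin and hybridised to 1-colour Affymetrix arrays, 1 per sample. The deposited values were intensity values on a linear scale (MAS5 signal, arbitrary units) that the authors computed with MAS5, as the submitters' processing notes record. Neither its version nor its scaling target is stated in the labels. In the values, each array had the same mean, 150, after 2% of probe sets were trimmed at each end. MAS5 subtracts mismatch signal, so low values run to 0. Gene names came from GEO's platform annotation (41091 probe sets with 1 gene, 1801 with several, 11721 unnamed).

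Signals were taken as log2(signal + 16) with no further normalization. Probe sets with a mean signal at or above the 40th percentile (5.87) were fitted with lmFit and eBayes in limma 3.58.1 (R 4.3.3) with group as the only term. Benjamini-Hochberg adjustment ran over all of them, with a threshold of 0.05. Background was the highest of 27 unspiked bacterial control probe sets on an array (2.5 to 4.9). A group at or below it on its 3 arrays gives a lower bound on the fold, set by the brighter mean over the larger of that level and the dim signal. Pathway lists are described by counts; up to 4 called genes with the smallest p are named per list. Members and lists were chosen with earlier results of these data known. Alternatives covered pseudocounts of 1 and 64, the filter, quantile normalization, probe set types, an intensity trend, a replicate block and leaving out each array. Figures used matplotlib 3.10.9. The 3 arrays per group limit precision.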

Additional observations from a re-analysis of the deposited data

How the results depend on the processing

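Called members numbered 9 genes under pseudocounts of 1 and 64, no filter, the 60th percentile filter, quantile normalization, an intensity trend and the mean over a gene's probe sets, and 13 probe sets under these settings except the 60th percentile filter, which gave 12 (the last setting has no probe sets). With any 1 array left out the counts were 9 and 13. Without the probe set types prone to cross-hybridise, 7 member probe sets were called of 7 tested. Every LOX, LOXL2 and PLOD2 probe set and that of P4HA1 which passed the filter were left out. Over the array 12580 of 20030 tested probe sets were called in that setting, against 20506 of 32771 in the main fit. In that setting 7 of the hypoxia genes were called against 11, but fewer of them were tested. P4HTM and NDRG1, both called in the main fit, had no probe set left to test. Leaving out 1 array gave 18744 to 19667 called probe sets. Over all settings the LOX difference ran from -7.40 to -3.71, LOXL1 from -5.75 to -1.29 and LOXL4 from -6.89 to -2.37. With background set at the median of all probe sets, the lower bounds shrank to 2.47 for the dimmest LOX probe set, 8.72 for LOXL1, 25.2 for LOXL4 and 12.3 for COL5A3. Leaving out 1 array turned the sign of 3 LOXL2 probe sets, none called: the differences ran from -0.0052 to 0.125 for the brightest, from -0.086 to 0.026 for the next and from -0.060 to 0.165 for the dimmest, and the cause was not tested. With the replicate number as a block, 20842 probe sets, 13 member probe sets and 9 member genes were called. Deviations of same-numbered samples correlated at 0.070, 0.074 and 0.19, and those of differently numbered samples at -0.13 to 0.079. The same-numbered values were weak but lay above most of the others, so whether the numbers mark pairs was not settled. The main fit did not take them as pairs. Signal near background limits LOX, LOXL1 and LOXL4 in 231wCFry to bounds.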
